A study of Mus musculus with 24 samples.

Results

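The 34 genes described here encode subunits of the proteasome and of its activators. They were taken by symbol from the 46318 gene IDs of the count files. The choice was by function, not by their level in these tumours, but with earlier results of these data known. They comprise 7 subunits of the alpha ring (Psma1 to Psma7), 6 of the beta ring (Psmb1 and Psmb3 to Psmb7), 6 ATPases (Psmc1 to Psmc6), 11 non-ATPase subunits of the regulatory particle and 4 subunits of other activators (Psme1 to Psme4). All 34 were among the 15820 genes that passed the filter on low counts. Bulk RNA was sequenced from mammary tumours of MMTV-PyMT mice, in which the mouse mammary tumour virus promoter drives the polyoma middle T antigen in mammary epithelium. The 24 libraries carry this transgene in both groups: 12 are labelled KO and 12 are labelled WT for the nuclear receptor SHP, encoded by Nr0b2 (Nr0b2-/- and Nr0b2+/+ in the design text). Tumours were taken at a volume of 2000 mm3; no age or strain is given by the labels. The question in the design is which genes differ between tumours of the 2 genotypes, and it is asked here of the proteasome. Libraries keep their labelled names below (KO 1 to KO 12, WT 13 to WT 24), and "KO" and "WT" stand for libraries labelled so.

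The proteasome is the cell's main protease for proteins tagged with ubiquitin. Stacked alpha and beta rings form a barrel whose beta subunits cut proteins, and a regulatory particle on its ends recognises, unfolds and feeds in the substrate. Under interferon, inducible catalytic subunits can replace the constitutive ones, and the activator made of Psme1 and Psme2 can cap the barrel, which changes the peptides offered to T cells. Many tumour cells are sensitive to its inhibition.

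Promoter sequences are shown because the subunit genes varied together across libraries. RefSeq windows (GRCm38.p6, 250 bases before to 50 bases after the start site) were found for 29 of the 34 genes, in 32 windows. They were searched on both strands for 5 short motifs: an ETS site (CCGGAAG), the CCAAT box (CCAAT), the core of the antioxidant response element bound by NRF factors (TGACNNNGC), an interferon gamma activated site (TTCNNNGAA) and the core of the interferon stimulated element (GAAANNGAA). Matches to different motifs overlapped in 0 member windows. The ETS letters were in 40.6% of the member windows and in 8.86% of all 32851 windows. The CCAAT box was in 34.4% of member windows against 37.4% of all windows, the antioxidant core in 15.6% against 12.4%, the interferon gamma site in 3.12% against 8.3%, and the interferon stimulated core in 15.6% against 8.56%. The ETS letters were in the windows of 12 genes: Psma6, Psmc1, Psmc2, Psmc6, Psmd2, Psmd4, Psmd6, Psmd11, Psmd12, Psmd13, Psme3 and Psme4. A match is a description of letters, not of bound sites. The other windows were not matched to the member windows in expression level or base composition. A link between these letters and the shared variation was not tested.

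The 150 bases before the start site are printed for 9 genes, 5′ to 3′ on the gene's strand, with matches to any of the 5 motifs in capitals. Psma5 and Psmd4 are 2 of the 3 genes on chromosome 3, a group that varied with its chromosome. Psmc1, Psmc2, Psmd2, Psmd11 and Psmd12 carry the ETS letters in the printed stretch, at -84 (Psmc2) to -11 (Psmd11) from the start. Other members with these letters, such as Psmd13 (-6) and Psmd6 (-45), are not printed. Psmb5 and Psmb6, constitutive catalytic subunits, carry the antioxidant core.
Psma5, chr3:108256776-108256925, + strand: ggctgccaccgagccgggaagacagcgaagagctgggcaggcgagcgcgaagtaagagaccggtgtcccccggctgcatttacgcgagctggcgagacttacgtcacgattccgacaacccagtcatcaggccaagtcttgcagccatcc
Psmd4, chr3:95042615-95042764, - strand: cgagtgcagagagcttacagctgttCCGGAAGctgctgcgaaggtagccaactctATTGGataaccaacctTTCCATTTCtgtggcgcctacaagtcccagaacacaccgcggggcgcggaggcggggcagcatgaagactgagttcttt
Psmc1, chr12:100110052-100110201, + strand: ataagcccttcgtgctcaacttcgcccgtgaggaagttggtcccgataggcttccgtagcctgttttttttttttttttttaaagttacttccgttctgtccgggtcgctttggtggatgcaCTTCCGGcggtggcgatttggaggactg
Psmc2, chr5:21785125-21785274, + strand: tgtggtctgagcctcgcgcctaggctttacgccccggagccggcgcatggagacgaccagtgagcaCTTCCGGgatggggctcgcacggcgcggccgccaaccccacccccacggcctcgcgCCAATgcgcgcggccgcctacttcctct
Psmd2, chr16:20651502-20651651, + strand: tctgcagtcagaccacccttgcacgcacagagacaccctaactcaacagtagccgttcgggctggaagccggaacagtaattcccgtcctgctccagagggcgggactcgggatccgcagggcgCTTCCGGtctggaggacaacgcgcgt
Psmd11, chr11:80428465-80428614, + strand: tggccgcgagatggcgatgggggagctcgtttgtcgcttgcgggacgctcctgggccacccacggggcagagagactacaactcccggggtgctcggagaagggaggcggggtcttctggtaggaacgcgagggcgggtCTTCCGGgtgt
Psmd12, chr11:107479378-107479527, + strand: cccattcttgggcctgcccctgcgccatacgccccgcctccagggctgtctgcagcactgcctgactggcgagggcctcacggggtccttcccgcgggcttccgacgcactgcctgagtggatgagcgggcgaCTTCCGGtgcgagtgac
Psmb5, chr14:54617996-54618145, - strand: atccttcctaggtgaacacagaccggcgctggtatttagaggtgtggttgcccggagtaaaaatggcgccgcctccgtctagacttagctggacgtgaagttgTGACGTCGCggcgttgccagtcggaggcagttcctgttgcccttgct
Psmb6, chr11:70525207-70525356, + strand: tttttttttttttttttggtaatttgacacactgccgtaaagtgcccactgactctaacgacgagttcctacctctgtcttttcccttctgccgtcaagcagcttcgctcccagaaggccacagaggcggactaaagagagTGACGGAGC
In Psma5, the gene with the smallest p-value of the set, the printed stretch holds 0 of the 5 motifs. Psmd4 holds 3 of them, a CCAAT box read on the other strand among them.

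The libraries held 18789250 to 30403961 assigned reads when labelled KO and 21685477 to 38022182 when labelled WT. Nr0b2 went against the labels: all 12 KO libraries had reads, 3 to 71 each and 182 in sum, while the WT libraries had 1 read in all and 11 of 12 had none. Directions below therefore follow the labels only. The labels do not say whether libraries of a group came from separate animals, so p-values measure the spread between these libraries. Mammary epithelial markers were present in every library (summed Krt8, Krt18, Epcam, Cdh1, Krt14 and Elf5, 3406 to 8085 reads scaled to library size as CPM, in KO and 3621 to 6326 in WT). Over all genes, edgeR's quasi-likelihood test called 50 of 15820 at an adjusted p under 0.05, and 9 to 72 with 1 library left out. In bulk RNA, more cells of a type and more RNA per cell cannot be told apart.

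None of the 34 subunit genes passed the test between KO and WT, yet 32 of 34 had the higher mean level in KO. The differences were small, with a median log2 difference of 0.21 (1.15-fold) against 0.0075 over all tested genes. At an adjusted p under 0.05, edgeR called 0 of 34 members and 0.316% of all genes. At an unadjusted p under 0.05, 17 members were higher in KO and 0 lower, while 10% of all genes were higher by that rule. A log2 difference above 0 was found for 51.3% of all genes. DESeq2, run as an alternative, called 1 member, Psma5 (adjusted p = 0.0352), and 2.64% of all genes. The ranges of KO and WT overlapped for all 34 members.

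One library, KO 12, carried a large part of this difference. Its members averaged 0.90 above their gene means on the log2 scale (1.86-fold), whereas the other 23 libraries lay between -0.29 (WT 20) and 0.21 (KO 6). KO 12 was the highest of all 24 libraries for 33 of the 34 genes, the exception being Psme4, where it ranked 16. At the other end, WT 20 was the lowest library for 17 genes. Without KO 12, 27 of 34 members had a positive difference (47.1% of all genes), 12 had an unadjusted p under 0.05 in that direction (8.66% of all genes), and the median fell to 0.097. Without WT 20 the count at that p was 11 (9.51% of all genes).

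**Figure D1:**
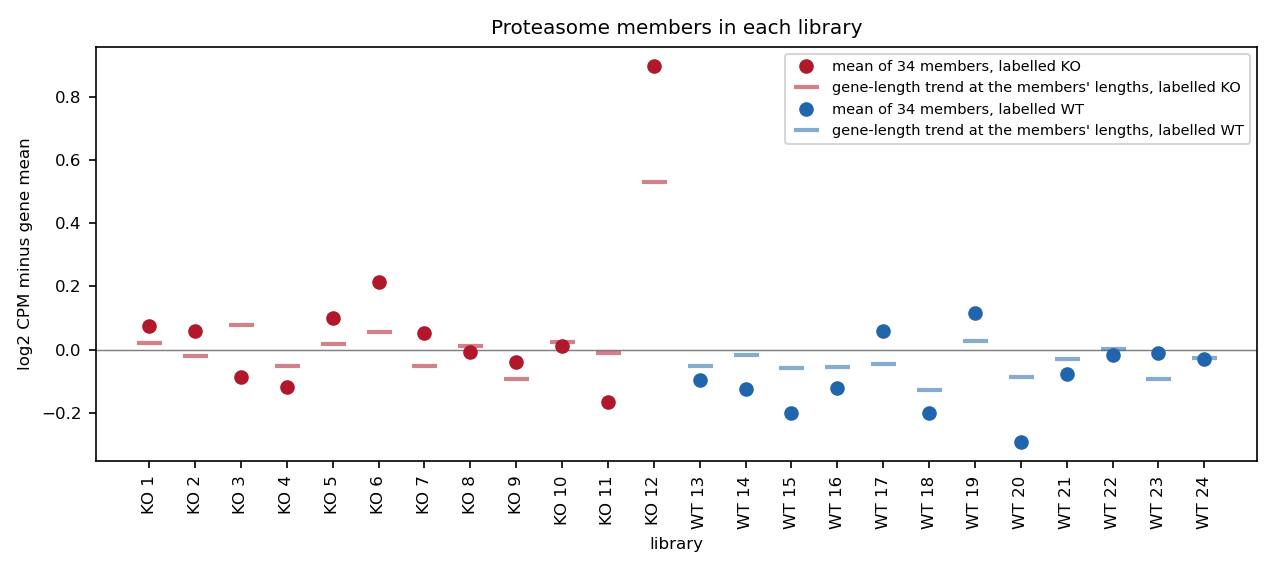
Mean log2 CPM of the 34 proteasome genes, each minus its gene mean, in each library (dots) and the value of that library's trend on gene length at the members' lengths (bars). KO 12 stands at 0.90 with a length trend of 0.53, and all other libraries lie between -0.29 and 0.21.

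The subunit genes are short, with a median exon length of 1469 bases against 3643 over all tested genes, and short genes as a whole were high in KO 12. The smoothed trend of expression on gene length stood at 0.53 at the members' lengths in KO 12, and between -0.13 (WT 18) and 0.078 (KO 3) in the others. After this trend was taken off, the members still averaged 0.37 in KO 12, against a highest value of 0.16 (KO 6) elsewhere. Across genes, which are not independent replicates, the log2 difference between groups and exon length had a Spearman correlation of -0.34 over all genes and -0.39 over the members (-0.11 without KO 12). With the trend as an offset in edgeR, 29 members had a positive difference (50.9% of all genes), 8 were higher in KO at an unadjusted p under 0.05 (8.8% of all genes), and the median was 0.086. With that offset and without KO 12, 24 were positive (47.8% of all genes), 7 had such a p (8.47%), and the median was 0.052. KO 12 also had the fewest reads (18789250), close to KO 3 (18799631), whose members averaged -0.088. Its epithelial markers averaged 0.91 above their means, with Krt14 at 2.47, Krt18 at 1.39 and Krt8 at 0.92 but Epcam at 0.14 and Cdh1 at 0.11. Skeletal muscle markers averaged 2.23 there, adipocyte markers -2.54 and T cell markers -1.36. Fibroblast markers averaged -1.40, endothelial markers -0.55 and macrophage markers -0.45. In CPM, the summed muscle markers of KO 12 were at 161, against a KO median of 95.1 and a highest KO library at 2750. The part of length, depth or cell make-up in its subunit levels was not tested.

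The 7 alpha-ring genes, which form the outer rings and the gate of the barrel, all had positive differences, from 0.21 to 0.41, and 6 of 7 had an unadjusted p under 0.05. Psma5 ranged from 86.3 CPM (KO 11) through a median of 109 to 223 (KO 12) in KO, and from 83.7 (WT 20) through 92.1 to 105 (WT 16) in WT. Beside KO 12, the high KO libraries were KO 10 at 149, KO 9 at 142 and KO 6 at 142 CPM, and 11 of 12 KO libraries lay above the WT median. KO 5 at 117, KO 1 at 111 and KO 8 at 108 CPM were also above every WT library. The log2 difference was 0.41 ± 0.12 (SE; edgeR adjusted p = 0.0994), and 0.30 without KO 12.

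Psma4 ranged from 132 through 159 to 233 CPM in KO and from 123 through 143 to 156 in WT. KO 12 was again the highest, the next KO library being at 183, above all WT libraries. The log2 difference was 0.22 ± 0.075 (edgeR adjusted p = 0.148).

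Psma7 was among the most variable members, with an SD within groups of 0.36, but of 0.17 without KO 12, the members' median. Its KO libraries ran from 201 (KO 4) through 248 to 710 CPM (KO 12), and its WT libraries from 165 (WT 20) through 213 to 266 (WT 22). With KO 12 set aside, the highest KO library was at 283 CPM. The log2 difference was 0.35 ± 0.16, and 0.14 without KO 12. Psma1 was one of the least variable members over all libraries (SD 0.17, and 0.14 without KO 12), at 170 to 281 CPM in KO (median 198) and 150 to 215 in WT (median 172); 11 of 12 KO libraries lay above the WT median. Its log2 difference was 0.21 ± 0.075 (edgeR adjusted p = 0.156), and 0.16 without KO 12. Psma3, at 0.29 ± 0.098, had 0.28 with the length trend as an offset and 0.17 without KO 12.

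In the beta ring, which holds the proteolytic sites, all 6 members had positive differences and 2, Psmb4 and Psmb7, had an unadjusted p under 0.05. Psmb4, a non-catalytic subunit, ranged from 165 (KO 11) through 191 to 411 CPM (KO 12) in KO and from 149 (WT 18) through 170 to 191 (WT 19) in WT. KO 10 at 271, KO 6 at 257, KO 9 at 242, KO 5 at 196.0 and KO 3 at 195.6 CPM also stood above every WT library. The log2 difference was 0.36 ± 0.12 (edgeR adjusted p = 0.135), and 0.24 without KO 12.

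The 3 constitutive catalytic subunits were higher in KO 12 than in any other library. Psmb5, which carries the chymotrypsin-like site, ran from 40.6 through 50.9 to 123 CPM in KO and from 38.1 through 46.4 to 53.1 in WT; the next KO library was at 55.3. Between the labels it differed by 0.27 ± 0.13 on the log2 scale, and 0.098 without KO 12. Psmb6, with the caspase-like site, ran from 141 through 178 to 374 CPM in KO and from 129 (WT 20) through 163 to 263 (WT 19) in WT. WT 19 exceeded all KO libraries except KO 12. The log2 value, KO minus WT, was 0.12 ± 0.14, and -0.012 without KO 12. Psmb7, with the trypsin-like site, ran from 130 through 149 to 324 CPM in KO and from 116 through 138 to 151 in WT. Its log2 difference was 0.25 ± 0.11 (edgeR adjusted p = 0.226), and 0.12 without KO 12.

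Psmb3, a structural beta subunit and the most variable of the 34 genes (SD within groups 0.38 on the log2 scale), ran from 82.1 (KO 9) through 105 to 265 CPM (KO 12) in KO and from 73.7 (WT 20) through 100 to 140 (WT 19) in WT. Outside KO 12 the KO range lay within the WT range. The difference was 0.21 ± 0.16 on the log2 scale, and 0.029 without that library.

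**Figure D2:**
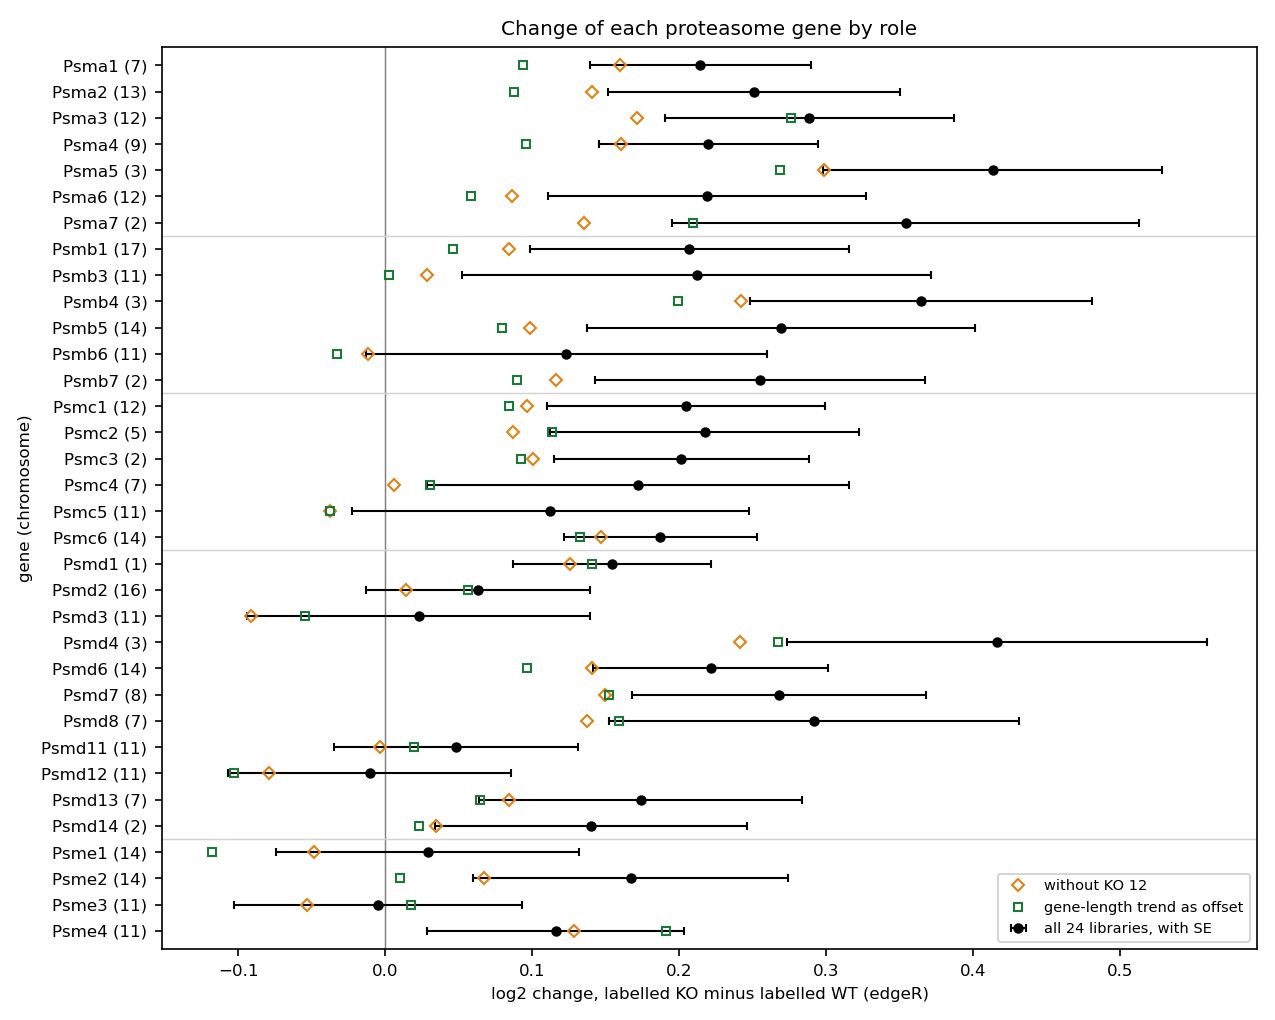
Log2 difference (labelled KO minus labelled WT, edgeR) of each gene with its SE (black), without KO 12 (diamonds) and with the gene-length trend as an offset (squares), with grey lines between roles. The chromosome 3 genes Psma5, Psmb4 and Psmd4 had the largest values, and 6 of the 7 genes below 0 without KO 12 were on chromosome 11.

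The 6 ATPases form the ring that unfolds substrates and opens the barrel. All 6 had positive differences within a narrow span, 0.11 to 0.22, and 4 had an unadjusted p under 0.05 (Psmc1, Psmc2, Psmc3 and Psmc6). Psmc4 was the most variable of them, from 78.3 (KO 9) through 100 to 242 CPM (KO 12) in KO and from 80.9 (WT 20) through 96.0 to 126 (WT 24) in WT; 6 of 12 KO libraries lay above the WT median. The difference on the log2 scale was 0.17 ± 0.14, and 0.0058 without KO 12. Psmc6 was the least variable of all 34 genes over all libraries, with an SD within groups of 0.15; without KO 12 its SD was 0.13 and Psmc3 had the lowest, 0.080. It ran from 150 (KO 4) through 188 to 241 CPM (KO 12) in KO and from 150 (WT 20) through 167 to 182 (WT 19) in WT, and 10 of 12 KO libraries were above the WT median. Between the labels it differed by 0.19 ± 0.066 on the log2 scale (edgeR adjusted p = 0.156), 0.15 without KO 12 and 0.13 with the length trend as an offset. Psmc5 had a difference of 0.11 ± 0.14, and -0.038 without KO 12.

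The 11 non-ATPase subunits build the scaffold, bind ubiquitin and remove it. Of these, 10 had positive differences and 5 an unadjusted p under 0.05. Psmd4, a receptor for ubiquitin chains, had the largest difference of all 34 genes. It ran from 107 (KO 8) through 131 to 342 CPM (KO 12) in KO and from 100 (WT 18) through 115 to 133 (WT 17) in WT. KO 10 at 178, KO 9 at 169, KO 6 at 164, KO 7 at 151 and KO 5 at 136 CPM were also above every WT library. The log2 difference was 0.42 ± 0.14 (edgeR adjusted p = 0.152), and 0.24 without KO 12.

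Psmd1, a large scaffold subunit, was among the least variable members over all libraries (SD 0.16, and 0.15 without KO 12). It ran from 140 (KO 11) through 179 to 213 CPM (KO 12) in KO and from 146 (WT 13) through 159 to 175 (WT 22) in WT. Its log2 difference was 0.15 ± 0.067, and 0.13 without KO 12. Psmd12, a lid subunit, had the lowest difference of the 11. It ran from 104 through 132 to 198 CPM in KO and from 104 through 135 to 173 in WT, and the groups overlapped. The log2 value, KO minus WT, was -0.011 ± 0.096 (edgeR adjusted p = 0.962). Psmd3 and Psmd11, also lid subunits, had differences of 0.023 ± 0.12 and 0.048 ± 0.083. Psmd2, the other large scaffold subunit, had 0.063 ± 0.076. Psmd14, the deubiquitinase of the lid, had 0.14 ± 0.11, and 0.034 without KO 12. Psmd6, Psmd7 and Psmd8 had differences of 0.22, 0.27 and 0.29, each with an unadjusted p under 0.05. Without KO 12 they had 0.14, 0.15 and 0.14, and Psmd8 no longer had such a p (0.15).

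Of the activators, none had an unadjusted p under 0.05. Psme3, a nuclear activator, ran from 104 through 120 to 165 CPM in KO and from 91.5 through 120 to 162 in WT, with a log2 difference of -0.0051 ± 0.098 (edgeR adjusted p = 0.982). Psme4, a large single-chain activator, had 0.12 ± 0.087. Psme4 was the only one of the 34 genes for which KO 12 lay below the gene mean, at -0.11.

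Psme1 ran from 132 (KO 2) through 169 to 267 CPM (KO 12) in KO and from 124 (WT 18) through 172 to 238 (WT 13) in WT. The difference on the log2 scale was 0.029 ± 0.10 (edgeR adjusted p = 0.900). Psme2 ran from 114 (KO 7) through 138 to 250 CPM (KO 12) in KO and from 101 (WT 18) through 130 to 170 (WT 13) in WT, with a log2 difference of 0.17 ± 0.11 (edgeR adjusted p = 0.391), and 0.067 without KO 12. WT 13 was the highest and WT 18 the lowest WT library for both genes.

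These subunits of the interferon-linked activator varied together and with the inducible catalytic subunits. Psme1 and Psme2 correlated at r = 0.93 (rho = 0.83) over the 12 KO libraries and at r = 0.92 (rho = 0.92) over the 12 WT libraries; permutation p adjusted over 18 tests was 0.00036 and 0.00018 for r, and 0.0048 and 0.00045 for rho. Psme1 and Psmb8, the inducible counterpart of Psmb5, correlated at r = 0.95 (rho = 0.93) in KO and r = 0.88 (rho = 0.86) in WT, with adjusted permutation p of 0.00018 and 0.00094 for r, and 0.00045 and 0.0036 for rho. Without the 2 libraries farthest from the median of the first gene, r was 0.83 and 0.91 for the first pair and 0.92 and 0.88 for the second, with adjusted permutation p of 0.010, 0.0028, 0.0028 and 0.0050. In the same order rho was 0.72, 0.87, 0.89 and 0.77, with adjusted permutation p of 0.087, 0.020, 0.020 and 0.055, so that 2 of these 4 no longer passed by rho.

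Psme2 and Psmb9, the counterpart of Psmb6, correlated at r = 0.61 (rho = 0.71) in KO and r = 0.89 (rho = 0.85) in WT. The adjusted permutation p was 0.088 and 0.00072 for r, and 0.031 and 0.0036 for rho. Without KO 12 the KO value was r = 0.80 (rho = 0.65), with adjusted permutation p of 0.0087 for r and 0.088 for rho. Without the 2 farthest libraries r was 0.69 (rho = 0.54) in KO and 0.84 (rho = 0.78) in WT, with adjusted permutation p of 0.071 and 0.0072 for r and 0.23 and 0.055 for rho. The constitutive subunits showed no such relation that passed the test: r of Psmb5 with Psmb8 was 0.46 (rho = -0.19) in KO and -0.079 (rho = 0.028) in WT, with adjusted permutation p of 0.24 and 0.81 for r and 0.77 and 0.99 for rho. The positive KO value rests on KO 12, without which r was -0.53 (rho = -0.55). Psmb6 with Psmb9 had r = 0.11 (rho = 0.0070) in KO and 0.14 (rho = 0.028) in WT. Psmb7 with Psmb10 had r = 0.29 (rho = -0.15) in KO and -0.095 (rho = 0.042) in WT. For these 2 pairs the adjusted permutation p was 0.55 to 0.81 for r and 0.82 to 0.99 for rho. In total 9 relations were computed in 2 groups.

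**Figure D3:**
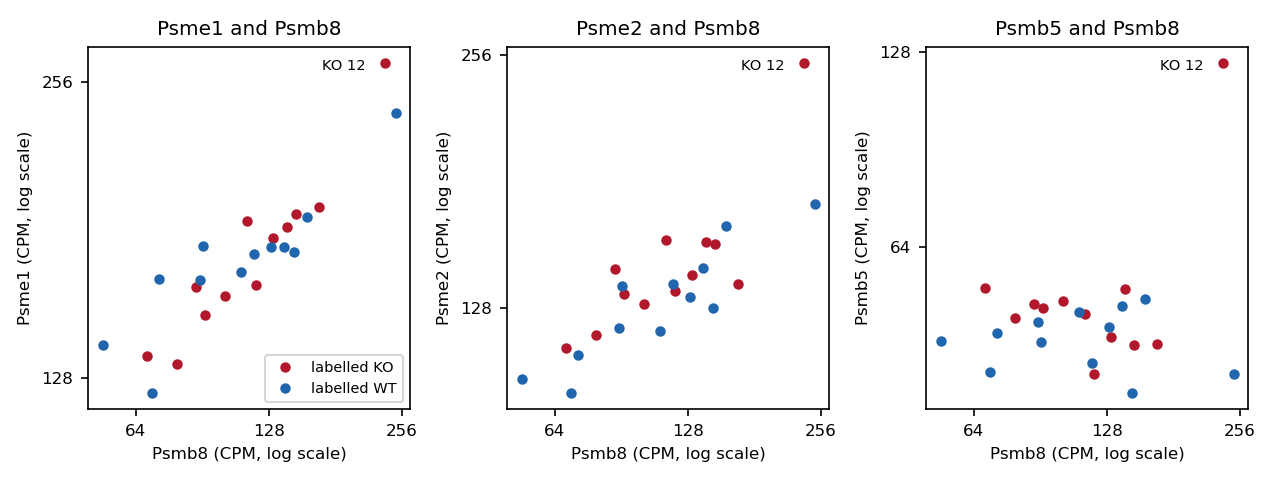
Psme1, Psme2 and Psmb5 against Psmb8 in CPM (log axes) in 12 libraries labelled KO and 12 labelled WT. Psme1 and Psme2 climb with Psmb8 in both groups, whereas Psmb5 lies between 38.1 and 55.3 CPM in every library but KO 12.

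The inducible subunits themselves differed little between the labels. Psmb8 ran from 68.0 through 117 to 234 CPM in KO and from 53.9 through 115 to 247 in WT, Psmb9 from 16.6 through 39.9 to 54.9 and from 16.8 through 37.3 to 77.0, and Psmb10 from 34.3 through 53.7 to 80.3 and from 27.9 through 56.8 to 88.8. WT 13 was the highest WT library for all 3, as it was for Psme1 and Psme2. The within-library log2 ratio of Psmb8 to Psmb5 averaged 1.13 ± 0.47 (SD, n = 12) in KO and 1.25 ± 0.63 (SD, n = 12) in WT, a difference of -0.12 ± 0.23 (SE; permutation p = 0.61, two-sided). For Psmb9 to Psmb6 the difference was -0.074 ± 0.26, and for Psmb10 to Psmb7 -0.14 ± 0.19, with permutation p of 0.78 and 0.47. All 3 had an adjusted p of 0.78.

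**Figure D4:**
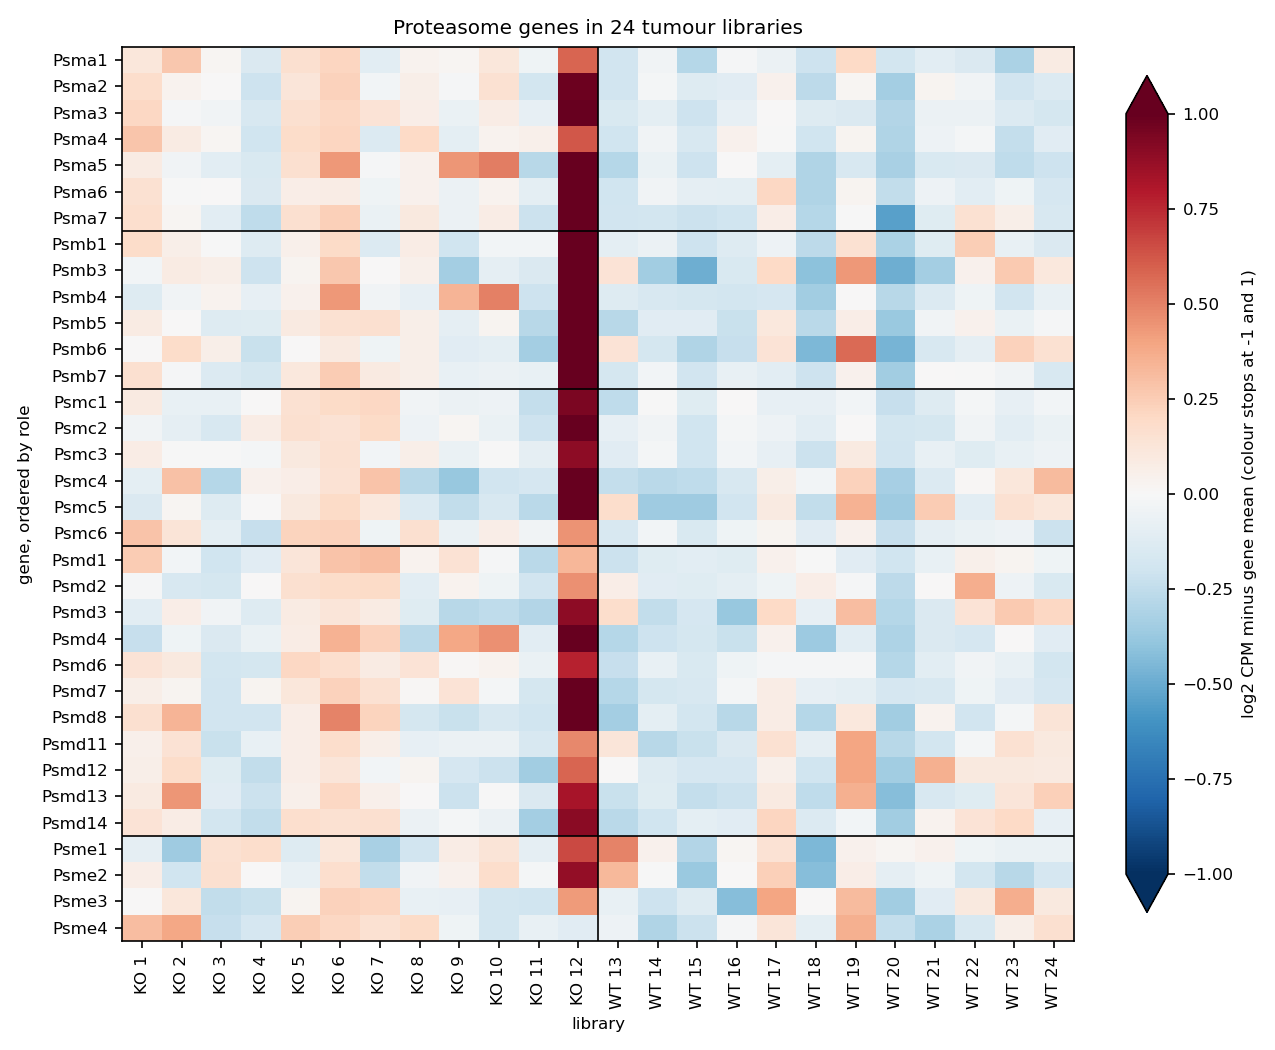
Log2 CPM minus the gene mean for the 34 genes (rows, by role) in 24 libraries (columns; the black vertical line parts KO from WT). KO 12 is high in 33 of 34 rows. Some rows that are not adjacent follow their chromosome together, such as Psma5, Psmb4 and Psmd4 in KO 9 and KO 10.

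Outside KO 12, members on chromosomes 3, 7 and 11 moved with the other genes of their chromosome. So did Psmd2 on chromosome 16 and Psmb1 on chromosome 17. The median of the 778 other tested genes on chromosome 3 stood at 0.44 above its mean in KO 9, 0.42 in KO 10 and 0.18 in KO 6. The 3 members there (Psma5, Psmb4 and Psmd4) exceeded the members elsewhere by 0.47, 0.53 and 0.21 in those libraries. On chromosome 11 the other 1288 genes had a median of 0.30 in WT 19, 0.21 in WT 23, 0.20 in WT 13 and 0.13 in WT 24. The 8 members there (Psmb3, Psmb6, Psmc5, Psmd3, Psmd11, Psmd12, Psme3 and Psme4) exceeded the members elsewhere by 0.36, 0.27, 0.23 and 0.20. On chromosome 7 the median was 0.27 in KO 2, where Psma1, Psmc4, Psmd8 and Psmd13 exceeded the others by 0.31. In WT 22 the medians of chromosomes 16 and 17 were 0.33 and 0.32. Psmd2 and Psmb1 exceeded the members elsewhere by 0.40 and 0.27 in that library. Copy number was not measured here, and its part in these values was not tested.

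Without KO 12, the correlation of a member with the median of its own chromosome was positive for 8 of 8 members on chromosome 11 (median r = 0.74), 3 of 3 on chromosome 3 (0.78) and 4 of 4 on chromosome 7 (0.60). It was positive for 0 of 5 on chromosome 14 and 0 of 4 on chromosome 2, whose medians ranged only from -0.057 to 0.052 and from -0.056 to 0.030. On other chromosomes the correlation was 0.67 for Psmd2 (chromosome 16), 0.64 for Psmb1 (17), 0.49 for Psmd7 (8) and 0.31 for Psmc2 (5). Psmd1, Psma2 and Psma4 had 0.093, 0.091 and 0.090, and the chromosome 12 members a median of 0.29. These are descriptions over 23 libraries that share scaling and depth. The chromosome 3 members had differences between the labels of 0.36 to 0.42, and the chromosome 11 members of -0.011 to 0.21 (median 0.080, and -0.025 without KO 12). With each library's chromosome medians as offsets in edgeR, Psma5 stood at 0.30, Psmb4 at 0.25 and Psmd4 at 0.31, Psmd12 at 0.066 and Psme3 at 0.079. All 34 differences were then positive (51% of all genes), with 19 at an unadjusted p under 0.05 (9.72% of all genes) and 0 called (0.215%). With the same offset and without KO 12, the count at that unadjusted p was 12 (8.44% of all genes) and the median 0.096.

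**Figure D5:**
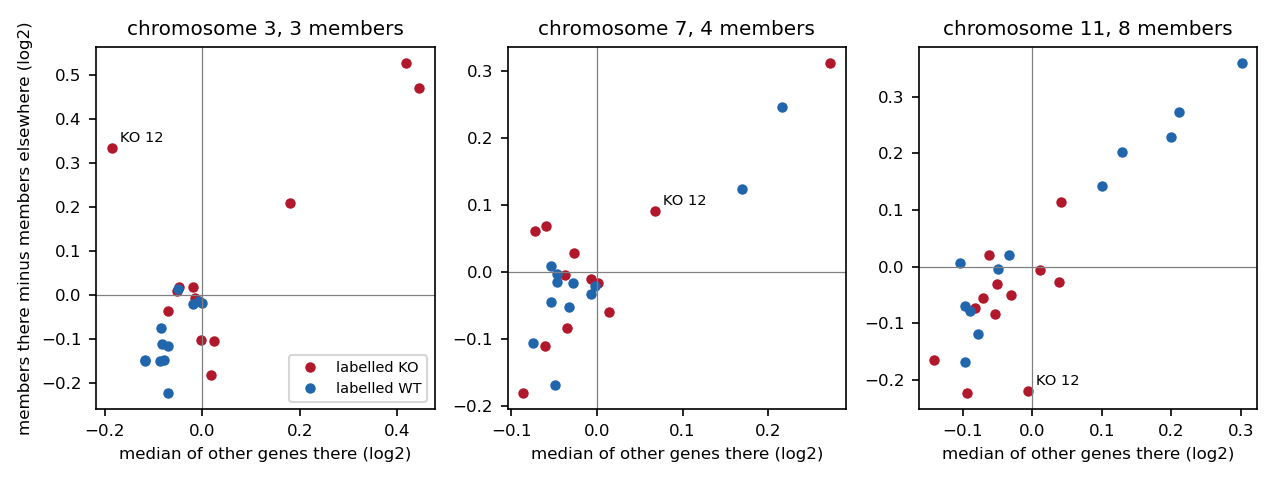
For chromosomes 3, 7 and 11, the mean of the members there minus that of the members elsewhere (y, log2) against the median of the other tested genes on that chromosome (x, log2) in each library. Libraries with a raised chromosome median, such as KO 9 and KO 10 for chromosome 3 and WT 19 for chromosome 11, had raised members there; KO 12 lies apart on chromosome 3.

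Across libraries, with each group centred on its mean, the 34 genes varied together. The median correlation over the 561 pairs was 0.72, and 0.45 without KO 12, against -0.0021 and -0.0022 over all pairs of tested genes. With the gene-length trend subtracted in all 24 libraries it was 0.49, against -0.0007 over all pairs. Without KO 12, pairs on the same chromosome had a median of 0.70 (56 pairs) and other pairs 0.43 (505 pairs). After chromosome medians were subtracted as well, these were 0.50 and 0.56. The most alike pairs without KO 12 were Psmb3 with Psmb6 (0.90), Psme1 with Psme2 (0.90), Psmc6 with Psmd6 (0.87) and Psmd3 with Psme3 (0.86). Each of these pairs shares a chromosome. The most alike pair on different chromosomes among the first 8 was Psmb5 with Psmd14 (0.86), followed by Psma4 with Psmc6 (0.85).

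Mean correlation with the other 33 members, without KO 12, was highest for Psma7 and Psmb5 (0.59 each). It was lowest for Psme1 (0.0093) and Psme2 (0.14), the activator subunits that followed Psmb8 and Psmb9 instead. Psme4 had 0.45 without KO 12 and 0.16 with it. The members had a median SD within groups of 0.25, against 0.34 over all tested genes. The tested genes were not matched to the members in expression level.

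Levels per length, in CPM per kilobase of exon averaged over 24 libraries, spanned 30.2 (Psme3) to 235 (Psmb1). By role, the medians were 151 for the alpha ring, 155 for the beta ring, 89.5 for the ATPases, 83.2 for the non-ATPase subunits and 87.1 for the activators. Among catalytic subunits, Psmb5 stood at 58.3 and its inducible counterpart Psmb8 at 98.9, whereas Psmb6 at 163 and Psmb7 at 142 exceeded Psmb9 at 34.4 and Psmb10 at 43.7.

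Of 57 related genes listed beside the members, 54 were tested and 0 were called by edgeR (lowest adjusted p = 0.0910), against 0.316% of all genes. The assembly factor Pomp, which helps to mature the core, had the largest difference of its list at 0.41 ± 0.11 (edgeR adjusted p = 0.0910), and 0.29 without KO 12. Sem1, a small subunit of the regulatory particle, had 0.43 ± 0.12 (edgeR adjusted p = 0.0948), and 0.28 without KO 12. The assembly chaperone Psmg3 had 0.39 ± 0.16, and the proteasome-bound deubiquitinase Uchl5 0.35 ± 0.12; without KO 12 these were 0.16 and 0.22. Of the 8 assembly factors and inhibitors tested, 7 had positive differences and 2 an unadjusted p under 0.05. Nfe2l1, a transcription factor for subunit genes, had 0.10 ± 0.078, and Nfe2l2 0.098 ± 0.097. In KO 12, Nfe2l1 stood at -0.24 and Nfe2l2 at 0.29 relative to their means. The 10 interferon response genes had a median of 0.095 and 0 at an unadjusted p under 0.05, and the 6 proliferation genes a median of 0.048 and 0 at that p.

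Markers of other cells also had positive differences, none of which passed the test. The 3 of 4 skeletal muscle markers that could be tested had log2 differences of 2.32 to 2.42, the 4 adipocyte markers 0.90 to 1.5 and the 4 T cell markers 0.88 to 1.39. Summed levels were 0.847 to 2750 CPM in KO and 0.802 to 272 in WT for muscle. They were 31.2 to 1571 and 7.93 to 345 for adipocytes, and 1.87 to 47.7 and 1.11 to 9.16 for T cells. The medians of these sums were 95.1 CPM in KO and 27.8 in WT for muscle, and 106 and 57.7 for adipocytes. For T cells the median was lower in KO, at 4.59 CPM against 5.16 in WT. The 3 B cell markers were too low to test; each was at 0 in some library. The part of cell make-up in the subunit differences was not tested.

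Some of the genes have near-identical copies that could take or give reads. A search of GENCODE transcripts found 28 copies of 15 members, 21 of them in the count files. The most read was Psme2b, with 2148 reads in all libraries beside 83558 for Psme2 (99.4% identity over 794 bases); Gm14048 had 875 beside 68491 for Psmd11. Summed with these copies, the median difference of the members stayed at 0.21. In the authors' deposited table of 14019 genes, 32 of the 34 members had a positive log2 fold change (50.8% of its genes), and 0 were below an adjusted p of 0.05 (0.292% of its genes). The lowest, for Psma5, was 0.102.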

How the data were processed

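Bulk mRNA of 24 tumours was sequenced with a stranded kit, per the labels' protocols. The deposited values are whole-number read counts per gene, made by the authors with featureCounts 2.0.0 on a RefSeq annotation of GRCm39. The file headers record no strand setting, so sense and antisense reads over shared exons are pooled. STAR and Subread also stand in the submitters' processing notes, without versions. The authors' deposited table lists a log2 fold change, a signed fold, mean log2 CPM, an F score and p-values per gene. No label gives a batch. No 2 libraries of a group were alike within sampling noise (132 pairs, chi-square over its degrees of freedom at least 23.6).

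In R 4.3.3, edgeR 4.0.16 (filterByExpr, TMM, quasi-likelihood) gave two-sided p-values over all genes, adjusted by Benjamini-Hochberg and called at 0.05. CPM are TMM-scaled, and log2 CPM used a prior count of 2. SE is the size of the log2 difference divided by the square root of F. Correlations and ratios used 100000 resamples. Copies were sought with blastn 2.17.0 (at least 90% identity over 100 bases). The alternatives covered scaling (RLE, upper quartile), the tool (DESeq2 1.42.0, voom in limma 3.58.1), other filters, chromosome medians or a lowess trend on gene length (span 0.3) as offsets, summed copies and libraries left out. Leaving out KO 12 together with an offset, removing it from correlations, and summing all copies found by blastn were chosen after seeing the data. On simulated counts for KO versus WT over 15820 genes, 29 of 50 changes of 1.5-fold and 36 of 50 of 2-fold were recovered, with 3 false calls. The members and lists were chosen with earlier results of these data known. All members are accounted for by role. Values per library are given for the 3 smallest p-values in each direction (only 2 members were lower), the 3 most and 3 least variable, Psmb5 to Psmb7, Psme1 and Psme2, with Psmd4 added after its values were seen.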

Additional observations from a re-analysis of the deposited data

How the results depend on the processing

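No paired analysis was possible because KO libraries are numbered 1 to 12 and WT libraries 13 to 24, so no number is shared. The count of 0 called members became 1 with DESeq2 and stayed at 0 under every other alternative run. All genes called were 50 in the edgeR test, 418 with DESeq2 and 31 without KO 11 and KO 12. With 1 library left out, an alternative added after seeing the data, this count ran from 9 (without WT 18) to 72 (without WT 14). It was outside 1.5 times of 50 without any 1 of 13 of the 24 libraries: KO 5, KO 6, KO 7, KO 10, KO 11, WT 13, WT 15, WT 17, WT 18, WT 21, WT 22, WT 23 and WT 24. The 17 members higher at an unadjusted p under 0.05 became 8 with the length trend as an offset and 7 with that offset and without KO 12; with 1 library left out the count ran from 11 (without WT 20) to 19. The median difference ran from 0.097 (without KO 12) to 0.22 with 1 library left out, was 0.052 with the length trend as an offset and without KO 12, and was positive in all alternatives run.

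10 members changed sign under some alternative, among them Psmb3, with 0.21 over all libraries, and the cause was not tested. With the length trend as an offset, Psmb6 was at -0.033, Psmc5 at -0.037, Psmd3 at -0.055, Psme1 at -0.12 and Psme3 at 0.018. With that offset and without KO 12, Psmb3 was at -0.035, Psmb6 at -0.066, Psmc4 at -0.039, Psmc5 at -0.088, Psmd3 at -0.12, Psmd11 at -0.016, Psmd14 at -0.0087 and Psme1 at -0.11. Without KO 11 and KO 12, Psmc5 was at -0.017, Psmd3 at -0.069 and Psme1 at -0.042. With chromosome medians as offsets, Psmd12 was at 0.066 and Psme3 at 0.079, and without KO 12 as well at 0.0077 and 0.041, with Psme1 at -0.056. With limma voom, Psme3 was at 0.0044. With 1 library left out, ranges that crossed 0 were -0.012 to 0.19 for Psmb6, -0.038 to 0.15 for Psmc5, -0.091 to 0.052 for Psmd3, -0.0035 to 0.091 for Psmd11, -0.079 to 0.028 for Psmd12, -0.048 to 0.083 for Psme1 and -0.053 to 0.031 for Psme3, as well as -0.21 to 0.0035 for the log2 ratio of Psmb8 to Psmb5 and -0.20 to 0.018 for Psmb9 to Psmb6.

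Without KO 12, r in KO was 0.80 for Psme2 with Psmb9, 0.73 for Psmd14 with Mki67, -0.53 for Psmb5 with Psmb8, -0.37 for Psmb6 with Psmb9 and -0.44 for Psmb7 with Psmb10. The negative values had adjusted permutation p of 0.15, 0.33 and 0.25. Without the 2 farthest libraries, r in KO was -0.63 for Psmb5 with Psmb8, -0.29 for Psmb6 with Psmb9 and -0.58 for Psmb7 with Psmb10. Their adjusted permutation p was 0.13, 0.54 and 0.17. In WT, also without the 2 farthest, r was 0.057 for Psmb7 with Psmb10 and -0.060 for Psmc4 with Nfe2l1 (adjusted permutation p = 0.88 for both). The last was -0.53 with chromosome medians subtracted (adjusted permutation p = 0.16). The median correlation of member pairs was 0.45 without KO 12 and 0.43 without KO 11 and KO 12. Each member had at least 30322 reads in all, and most differences seen here lie below the 1.5-fold changes that were simulated.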

Other observations

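Psmc4 and Nfe2l1 had r = -0.70 (rho = -0.64) in KO and r = 0.14 (rho = 0.25) in WT, with permutation p adjusted over 18 tests of 0.084 and 0.81 for r, and 0.068 and 0.65 for rho. Without the 2 farthest libraries, the KO value was r = -0.26 (rho = -0.37). Psmd14 and the proliferation gene Mki67 had r = 0.29 (rho = 0.52) in KO and 0.51 (rho = 0.41) in WT, with adjusted permutation p of 0.55 and 0.17 for r, and 0.16 and 0.30 for rho; without KO 12 the KO value was r = 0.73 (rho = 0.58), with adjusted permutation p of 0.034 for r and 0.15 for rho. Without the 2 farthest libraries it was r = 0.71 (rho = 0.52), with adjusted permutation p of 0.071 and 0.24.

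Among genes that bring substrates to the proteasome, Ubqln2, a ubiquitin-binding shuttle, had a log2 difference of -0.15 ± 0.057 and its relative Ubqln4 0.20 ± 0.076 (edgeR adjusted p = 0.192 and 0.187). These values were nearly the same without KO 12, at -0.15 and 0.18. Ubqln4 lies on chromosome 3, whose median averaged 0.057 in KO and -0.066 in WT. The part of that in its value was not tested. The segregase Vcp, which extracts tagged proteins, had 0.14 ± 0.071. The activating enzymes Uba1 and Uba6 had -0.071 ± 0.083 and -0.19 ± 0.12.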
